A study of Mus musculus with 57 samples.

Results

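Promoters active in every library are the autosomal promoters that carried the marks of activity in every cortex and every gastrocnemius library and the mark of repression in none. They were chosen by a rule on the called peaks: a gene of the curated RefSeq set on mm10 is a member if an H3K4me3 peak and an H3K27ac peak overlap the 1 kb on either side of its most upstream transcription start site (TSS) in every cortex and every gastrocnemius library, and no H3K27me3 peak does so in any library. Of 24963 autosomal genes, 8960 (35.9%) met the rule. They are called members below.

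H3K4me3, trimethylation of lysine 4 of histone H3, marks the nucleosomes around active or poised start sites. H3K27ac, acetylation of lysine 27, marks active promoters and enhancers, and H3K27me3, trimethylation of the same lysine by the Polycomb repressive complex 2, marks repressed genes. A lysine 27 cannot carry both modifications at once, although a promoter can carry both in different cells or on different histone tails. Promoters that stay active across tissues are known to belong largely to housekeeping genes, to lie in CpG islands and often to lack a TATA box.

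The mice were PSAPP animals, which express mutant human amyloid precursor protein and presenilin 1 and serve as a model of Alzheimer's disease. All were 13 months old, had been housed singly and fed a modified AIN diet, and none was without the transgenes, so every value below is from this genotype. Chromatin immunoprecipitation followed by sequencing was done for 3 marks on chromatin from cortex (9 mice) and gastrocnemius muscle (10 mice), which gave 57 libraries, with 9 mice represented in both tissues. Females and males are mixed in each group, and because the labels give no sex per library, sexes were not compared. In bulk tissue, fewer cells with a mark and less of the mark per cell cannot be told apart.

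Reads in autosomal peaks ran from 9.03 to 18.6 M (mega) per H3K4me3 library and from 3.90 to 27 M per H3K27ac library. Cortex library 09 was the shallow one of H3K27ac and gastrocnemius library 06 the deep one, and the main H3K27ac counts were repeated without each. H3K27me3 libraries held 3.90 to 6.35 M reads in cortex and 2.99 to 18.2 M in gastrocnemius. Library names of 2 cortex and 4 gastrocnemius mice carry a run number, the others do not. The tissue labels were checked on marker genes that are not members. Snap25, a synaptic protein gene of neurons, had an H3K4me3 peak at its TSS in 9 of 9 cortex and 0 of 10 gastrocnemius libraries. Ckm, the muscle creatine kinase gene, had one in 0 of 9 and 10 of 10. The neuron markers Gad1 and Camk2a also had it in cortex only (9 libraries), as did Rbfox3 (7). Myh1, Myh4 and Tnnt3 had it in gastrocnemius only (10 libraries). Other markers did not separate the tissues so. Syt1, Slc17a7 and Nrgn had it in all 19 libraries and Gad2 in 18. The muscle genes Myod1, Des and Acta1 had it in 6, 5 and 1 cortex libraries.

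The 150 bases before the TSS are shown for 8 members to make the range visible: reference genes, a ribosomal protein gene, genes of the chaperonin and of RNA polymerase II, a histone gene, and Cdk5r1 and Pygm, 2 members whose marks differed strongly between the tissues. They were read from the RefSeq assembly GRCm38 (mm10), 5′ to 3′ on the strand of the gene, and capitals mark the letters of motifs that are spelled out further on. Ppia (cyclophilin A) is from chr11:6415717-6415866, plus strand, Rplp0 (a protein of the ribosomal stalk) from chr5:115559317-115559466, plus strand, and Eef2 (elongation factor 2) from chr10:81176481-81176630, plus strand. Cct2 (a subunit of the TRiC chaperonin) is from chr10:117063853-117064002, minus strand, Polr2a (the largest subunit of RNA polymerase II) from chr11:69758634-69758783, minus strand, and H4c3 (histone H4) from chr13:23698459-23698608, minus strand. Cdk5r1 (p35, the neuronal activator of the kinase Cdk5) is from chr11:80476873-80477022, plus strand, and Pygm (muscle glycogen phosphorylase) from chr19:6384258-6384407, plus strand.
Ppia: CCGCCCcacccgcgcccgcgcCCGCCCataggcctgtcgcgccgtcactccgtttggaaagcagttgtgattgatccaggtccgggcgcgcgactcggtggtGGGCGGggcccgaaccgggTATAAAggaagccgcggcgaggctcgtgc
Rplp0: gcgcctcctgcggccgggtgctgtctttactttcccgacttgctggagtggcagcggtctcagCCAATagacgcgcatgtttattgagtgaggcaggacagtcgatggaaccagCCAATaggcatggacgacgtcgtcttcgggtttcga
Eef2: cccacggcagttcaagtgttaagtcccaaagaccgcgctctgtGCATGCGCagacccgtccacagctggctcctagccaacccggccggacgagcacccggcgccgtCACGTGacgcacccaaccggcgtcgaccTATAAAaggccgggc
Cct2: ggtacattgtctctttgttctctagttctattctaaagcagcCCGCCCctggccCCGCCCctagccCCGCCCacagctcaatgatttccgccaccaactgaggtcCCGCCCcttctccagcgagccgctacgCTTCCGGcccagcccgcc
Polr2a: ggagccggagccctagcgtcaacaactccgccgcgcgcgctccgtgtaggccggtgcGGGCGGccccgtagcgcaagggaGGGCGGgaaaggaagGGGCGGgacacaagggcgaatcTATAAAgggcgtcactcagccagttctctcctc
H4c3: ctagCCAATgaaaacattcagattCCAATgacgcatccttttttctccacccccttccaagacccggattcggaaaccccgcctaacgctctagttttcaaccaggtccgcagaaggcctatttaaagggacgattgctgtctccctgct
Cdk5r1: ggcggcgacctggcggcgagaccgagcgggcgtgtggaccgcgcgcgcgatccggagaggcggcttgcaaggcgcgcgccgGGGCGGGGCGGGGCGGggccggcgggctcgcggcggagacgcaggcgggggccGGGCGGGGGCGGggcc
Pygm: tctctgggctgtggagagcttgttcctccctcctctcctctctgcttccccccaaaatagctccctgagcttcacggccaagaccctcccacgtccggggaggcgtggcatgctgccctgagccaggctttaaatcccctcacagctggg

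These promoters differ in base composition as much as in motifs. From 250 bases before to 50 bases after the TSS, Cdk5r1 held 59 CpG dinucleotides, Ppia 43 and Cct2 25, against 10 at H4c3 and 4 at Pygm. The observed-to-expected CpG ratio of the same bases, which is near 1 where CpG has not been lost, was 1.24 for Cdk5r1, 0.546 for H4c3 and 0.157 for Pygm. The Pygm promoter met the rule with few CpG.

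H3K4me3 lay at 13419 autosomal TSSs (53.8%) in every one of its 19 libraries, H3K27ac at 12951 (51.9%) in every one of its 19, and both at 12100 (48.5%). Of these 12100, 3140 had an H3K27me3 peak in at least 1 library, 370 of them in every library. In all, 552 genes failed the rule in exactly 1 library, 479 through an H3K27me3 peak, 50 through a missing H3K27ac peak and 23 through a missing H3K4me3 peak. Of the 479, 384 had their H3K27me3 peak in a gastrocnemius library and 95 in a cortex library. Leaving out the H3K27me3 library of gastrocnemius 05 would add 94 members, the most of any library, and leaving out the shallow H3K27ac library of cortex 09 would add 40.

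Genes just outside the rule had lower peaks than the members, as read density shows, given here as RPM (reads in the window for each M reads in autosomal peaks) per kb of the 2 kb around the TSS, as the median over the 19 libraries of the mark. Members had a median H3K27ac density of 4.74 (5th to 95th percentile 3.11 to 7.15). The 50 genes that missed only an H3K27ac peak had a median of 2.05, and the 479 with only an H3K27me3 peak in 1 library had 4.30. For H3K4me3 the medians were 21.1, 6.80 and 18.2. These values chose the members and are given as a description.

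Protein-coding genes made up 8076 of the 8960 members, and 116 members were microRNA genes and 62 small nucleolar RNA genes. Many of these short RNA genes sit within other genes: 80 of the 116 microRNA members and 60 of the 62 small nucleolar RNA members lay inside another gene, so the peaks at their annotated start need not be their own. A head-to-head neighbour, which is a gene on the other strand whose TSS lies upstream within 1 kb, was found for 2022 members (22.6%). The share was 10.6% over all autosomal genes, 8.72% among genes with H3K4me3 in every library that did not meet the rule, and 0.993% among the 3223 genes without a peak of any mark. For 2015 of these 2022 members (99.7%) the neighbour was a member too, and a peak that spans both start sites counts for both genes. Members' coding genes had a median length of 21.9 kb, against 16.9 kb for all, 26.9 kb for genes with H3K4me3 in every library that did not meet the rule and 2.79 kb for unmarked genes. By chromosome the share of members ran from 29.8% on chromosome 7 to 42.0% on chromosome 11, and without olfactory receptor genes from 31.4% on chromosome 14 to 44.0% on chromosome 11.

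Genes of the machinery that every cell uses were nearly all members. Of 73 autosomal genes of cytosolic ribosomal proteins, 69 were members, and the other 4 (Rpl5, Rpl26, Rpl34 and Rpl38) had both active marks everywhere but H3K27me3 peaks in 2, 1, 3 and 6 libraries. All 12 subunits of RNA polymerase II and all 8 subunits of TRiC, the chaperonin that folds actin and tubulin, met the rule. So did 66 of 77 mitochondrial ribosomal proteins, 29 of 33 proteasome subunits, 19 of 20 cytosolic tRNA synthetases, 22 of 26 spliceosome genes and 24 of 27 nuclear pore genes. Of the Mediator complex, which links activators to RNA polymerase II, 23 of 26 genes were members. Mediator gene Med10 had H3K27me3 in all 19 libraries and neither active mark at its annotated TSS, and the proteasome gene Psma6 had H3K27ac in 19 and H3K4me3 in 0, both at the most upstream start in RefSeq.

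**Figure D1:**
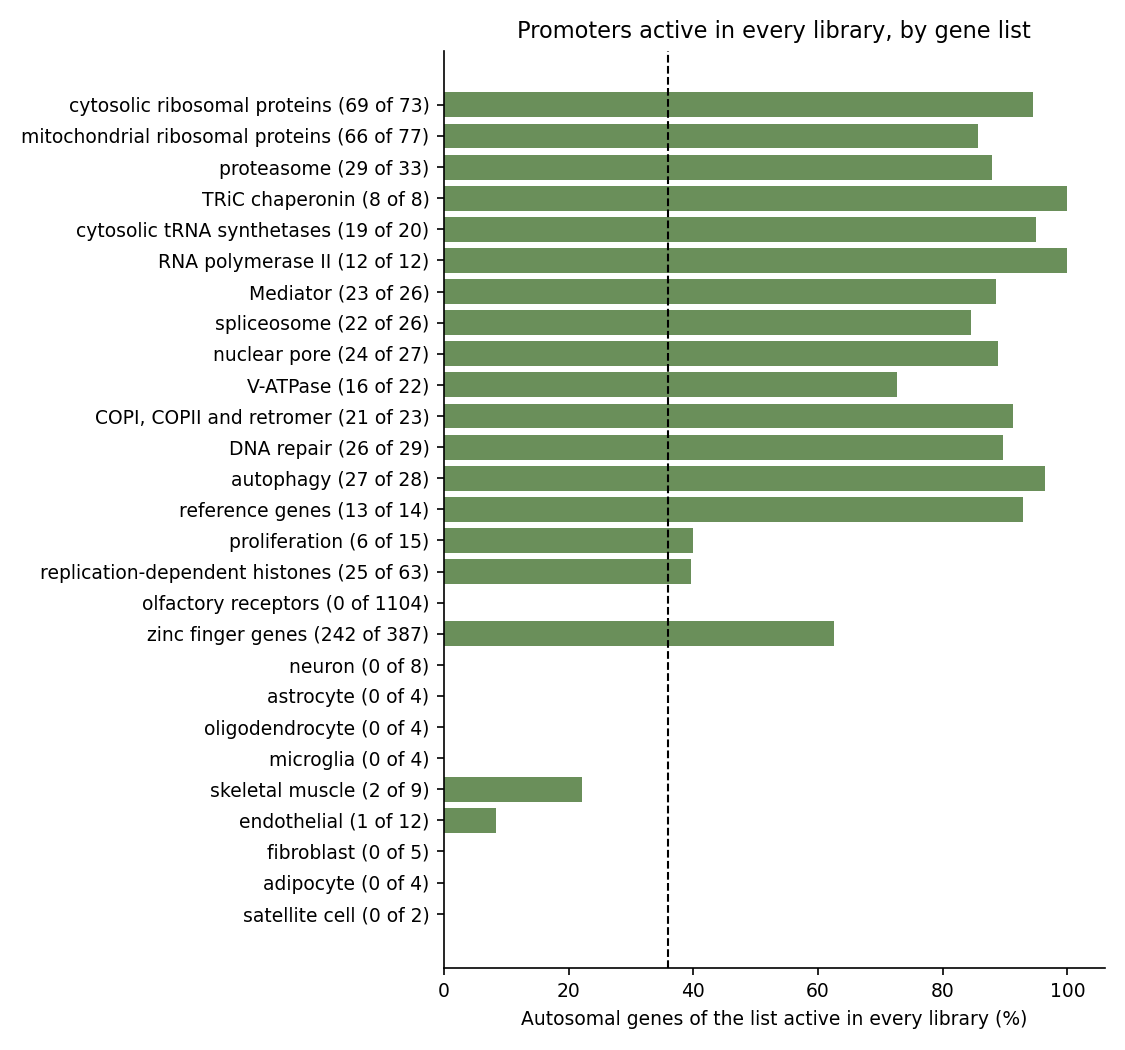
Share of each gene list that met the rule. Bars give the percent of autosomal genes of the list that are members, with counts in brackets, and the dashed line is the share of all autosomal genes (35.9%). Lists of cellular machinery lie far to the right of the line, and 9 lists of cell type markers lie to its left.

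Trafficking and turnover gave the same picture with gaps. The rule was met by 21 of 23 genes of the COPI, COPII and retromer coats, 26 of 29 DNA repair genes and 27 of 28 autophagy genes. Among the 22 subunit genes of the V-ATPase, the proton pump that acidifies lysosomes and synaptic vesicles, 16 were members. The 6 others encode subunit isoforms, and Atp6v1b1, an isoform of kidney and inner ear, had H3K27me3 in 19 of 19 libraries and H3K4me3 in 0. Of 14 genes that are often used as reference genes in expression assays, 13 were members. The exception was Ywhaz, whose most upstream annotated start had no peak of any mark.

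All 15 proliferation genes, which act in cell division, had H3K4me3 in all 19 libraries, and 6 of the 15 (40.0%) were members, beside 35.9% of all autosomal genes. Mki67, which encodes the Ki-67 antigen, had H3K27me3 in 18 libraries, and Ccnb2 (cyclin B2) had H3K27ac in 11. Replication-dependent histone genes, which are transcribed in S phase, contributed 25 of 63 (39.7%), and 27 of the 63 had H3K27me3 in at least 1 library. Genes with the symbol prefix Zfp, mostly zinc finger factors, contributed 242 of 387 (62.5%). None of the 1104 autosomal olfactory receptor genes was a member: 793 had no peak and 309 had H3K27me3.

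Cell type markers were outside the rule with 3 exceptions. No marker of neurons (0 of 8), astrocytes (0 of 4), oligodendrocytes (0 of 4), microglia (0 of 4), fibroblasts (0 of 5), adipocytes (0 of 4) or satellite cells (0 of 2) met it. Some of these missed it through H3K27me3 alone. Both active marks stood in every library at 2 neuron, 2 astrocyte, 1 oligodendrocyte and 1 fibroblast marker. Of 9 skeletal muscle markers, Actn3 (alpha-actinin 3 of fast fibres) and Mylpf (fast myosin regulatory light chain) met the rule. Each has a head-to-head neighbour, Zdhhc24 at 759 bp from Actn3 and Tbc1d10b at 431 bp from Mylpf, and a single H3K4me3 peak covered both start sites of each pair in all 9 cortex and all 10 gastrocnemius libraries. Of 12 endothelial markers Eng (endoglin) met the rule. Another 6 had both active marks in every library and H3K27me3 in at least 1.

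The sequence around the TSS set members apart from unmarked genes in composition. From 250 bases before to 50 bases after the TSS, which was read for 8959 members, the median CpG ratio was 0.818 in members, 0.699 in genes with H3K4me3 in every library that did not meet the rule, and 0.132 in genes without any peak. The ratio was above 0.6 in 82.3% of members and in 44.9% of all autosomal genes. G plus C made up a median of 62.0% of the bases in members and also 62.0% in the genes with H3K4me3 that did not meet the rule, so these groups differed in CpG ratio and not in median G plus C. Genes are not independent of each other, and these shares are given without a test.

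Motifs were counted on both strands of the same 300 bases as exact letters, with overlaps between motifs allowed. The ETS motif (CCGGAAG) stood in 22.5% of members, 8.59% of genes with H3K4me3 that did not meet the rule, and 10.9% of all autosomal genes. NRF1 (GCATGCGC) stood in 6.63%, 2.31% and 3.21% of these, and YY1 (ATGGCGGC) in 6.32%, 2.31% and 2.87%. The 3 motifs thus had shares in members above those of the genes that carry H3K4me3 but miss the rule. Each of the 3 holds a CpG, and the CpG ratio was also higher in members (0.818 against 0.699). How much of the difference in motifs goes with composition was not tested. The SP1/KLF motif (GGGCGG) was common in both, at 68.8% and 65.0%, against 43.4% of all genes. NFY (CCAAT) differed little, at 39.4% of members and 38.0% of all, and so short a word is common by its length.

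The TATA box (TATAAA) went the other way. It stood in 5.76% of members, 7.99% of genes with H3K4me3 that did not meet the rule, 13.1% of all and 31.2% of unmarked genes, whose sequence is poorer in G plus C (40.3%). The E-box (CACGTG) stood in 11.1% of members and 7.69% of all, and the CRE (TGACGTCA) in 4.06% and 2.28%. In the stretches printed above, Eef2 holds NRF1, E-box and TATA letters, Cct2 has SP1/KLF and ETS letters, and Pygm has none of the 8 motifs. Missing letters in a window say nothing of the factor.

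**Figure D2:**
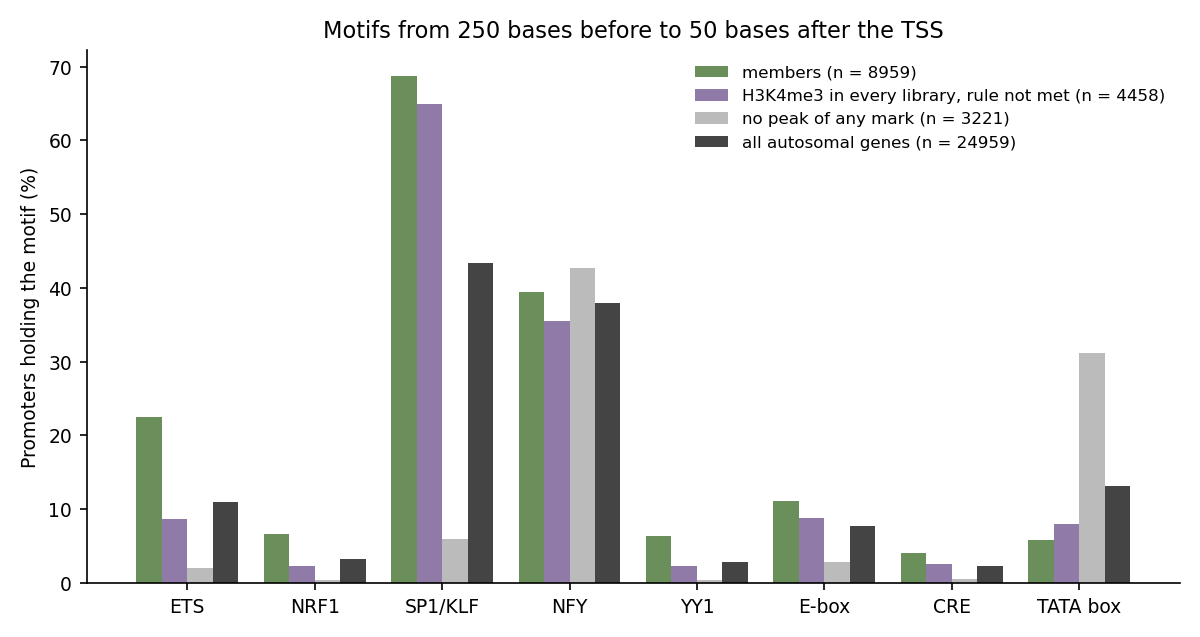
Share of promoters that hold each motif. Bars give the percent of genes with at least 1 exact match on either strand from 250 bases before to 50 after the TSS, in members, in other genes with H3K4me3 in every library, in genes without any peak and in all autosomal genes. ETS is at 22.5% in members and 1.93% in unmarked genes, and the TATA box at 5.76% and 31.2%.

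Gene groups among the members differed in their motifs. ETS stood in 40.6% of the 69 cytosolic ribosomal protein members, 34.9% of the 66 mitochondrial ones and 28.5% of the 242 Zfp members, against 22.5% of all members. YY1 stood in 18.2% of the mitochondrial ribosomal protein members. The 25 histone members were at the other end, with a median G plus C of 45.7%. NFY stood in 84% of them and the TATA box letters in 44.0%, or in 24% within the 100 bases before the TSS. H4c3 above shows NFY letters at 2 places.

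Levels at the start site ranged widely although every member had its peaks. H3K4me3 density in the 2 kb around the TSS had a median of 23.6 in cortex (5th to 95th percentile 10.1 to 37.7) and 18.3 in gastrocnemius (9.30 to 28.8). Among the highest by the mean over libraries were Lmnb1 (lamin B1), with 50.2 in cortex and 39.0 in gastrocnemius, Dock4, which shares its peaks with Zfp277, with 49.9 and 35.4, and Pex13, which shares them with Pus10, with 46.6 and 39.5. At the low end were Pdpk1 (a kinase upstream of Akt), at 1.05 and 1.22, Gpr182 (1.78 and 2.12) and Tnfaip8l2 (1.99 and 2.48). Reads in a peak were spread evenly over its width for this measure, so a wide peak lowers the density at its summit.

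H3K27ac densities were lower and narrower in range, with medians of 5.25 in cortex and 4.27 in gastrocnemius. Tnrc18 was highest, at 12.7 in cortex and 12.2 in gastrocnemius, and Ube3a, a ubiquitin ligase with imprinted expression in neurons, was also among the highest (12.6 and 9.60). Smn1, the survival of motor neuron gene, had 0.739 and 0.544 at its annotated TSS, and Pabpc4 0.550 and 0.511. Over the 8960 members, density in cortex and gastrocnemius had a Spearman's rho of 0.796 for H3K4me3 and 0.60 for H3K27ac, and the marks had 0.556 with each other in cortex and 0.433 in gastrocnemius. These correlations are across promoters, of which 35.1% share H3K4me3 peaks with another member and 37.2% share H3K27ac peaks.

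Peaks at the members were wider in gastrocnemius than in cortex for both marks. For H3K4me3, the median width over members was 2.80 to 3.40 kb in the 9 cortex libraries (median 3.20) and 3.60 to 5.40 kb in the 10 gastrocnemius libraries (median 4.2), without overlap. The means were 3.09 ± 0.203 (SD, n = 9) and 4.32 ± 0.627 kb (SD, n = 10), a difference of -1.23 kb, cortex minus gastrocnemius (two-sided exact permutation p = 3.25e-05, 5.77e-05 after Benjamini-Hochberg adjustment over 4 tests). For H3K27ac, cortex libraries had 4.60 to 6.60 kb (median 6.2) and gastrocnemius libraries 7.20 to 13.2 kb (median 9.10), again without overlap. The difference was -4.00 kb, from 5.80 ± 0.735 (SD, n = 9) to 9.80 ± 2.32 kb (SD, n = 10; two-sided exact permutation p = 4.33e-05, adjusted 5.77e-05). Without cortex 09 it was -3.85 kb, and without gastrocnemius 06 it was -3.62 kb.

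The width gap was seen on both sides of the TSS. H3K4me3 reached a mean of 1.09 kb upstream and 1.76 kb downstream in cortex and 1.67 and 2.38 kb in gastrocnemius. H3K27ac reached 1.97 and 3.18 kb in cortex and 3.25 and 5.10 kb in gastrocnemius. Genes that had the mark in every library but did not meet the rule had H3K4me3 widths of 3.11 kb in cortex and 3.38 kb in gastrocnemius, and H3K27ac widths of 6.11 and 7.44 kb. Their gap between tissues was not tested against that of the members.

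**Figure D3:**
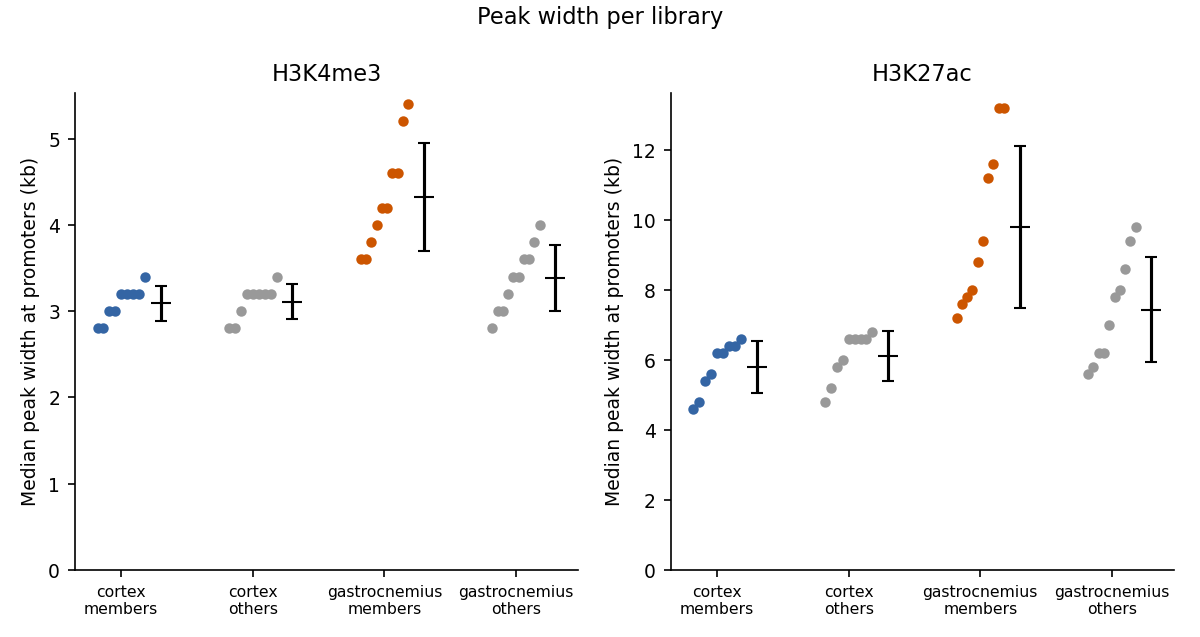
Peak width at promoters. Each point is 1 library and gives the median width, in kb, of the peaks at members or at the other genes with the mark in every library, and bars give the mean and SD. Members in gastrocnemius sit above members in cortex without overlap, from 3.60 kb against at most 3.40 kb for H3K4me3 and from 7.20 kb against at most 6.60 kb for H3K27ac.

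Single members could be far wider. H3K4me3 peaks of 10 kb or more, as the median over the libraries of a tissue, stood at 71 members (0.792%) in cortex and 385 (4.30%) in gastrocnemius, and H3K27ac peaks of that width at 2303 (25.7%) and 4328 (48.3%). By the sum of the median widths in both tissues, the widest H3K4me3 peaks were at Neat1, a long noncoding RNA that builds paraspeckles (12.2 kb in cortex, 32.5 kb in gastrocnemius), at Eif4enif1 (2.80 and 40.3 kb) and at Nfib, a nuclear factor I gene (20.2 and 19 kb). The gastrocnemius libraries of Eif4enif1 were split, with normalized H3K4me3 reads of either 72.2 to 83.2 or 1772 to 2981 RPM. Its median width there may therefore describe no single library. By the same sum, the widest H3K27ac peaks were at Capzb, an actin capping protein (103.8 and 110.3 kb). St6galnac4 and Dpm2 on chromosome 2 had median H3K27ac widths of 62.2 kb in cortex and 112.5 kb in gastrocnemius, and Eng had the same median width in gastrocnemius. St6galnac4 and Dpm2 held the same number of reads, as under 1 peak, in 6 of 9 cortex and 6 of 10 gastrocnemius libraries and differed in the others.

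Members took a large share of the reads. Peaks at members were on average 35.1% of the H3K4me3 peaks of a cortex library and 29.5% of those of a gastrocnemius library, and held 60.1% ± 0.665 (SD, n = 9) and 61.7% ± 1.88 (SD, n = 10) of reads in autosomal peaks. The difference of -1.60 percentage points had a two-sided exact permutation p of 0.0280 (adjusted 0.0280). Its size depended on the processing and the libraries. With equally many top-scoring peaks taken in each library it was -2.93 (exact p = 2.17e-05), with 59.9 to 61.0% in cortex and 61.4 to 65.1% in gastrocnemius, and among libraries with a run number it was -3.52 (exact p = 0.0667, the smallest for 2 against 4). With mice paired it was -1.39 (exact p = 0.105), among libraries without a run number -0.688 (exact p = 0.340), and it rose above p = 0.05 without cortex 09 (-1.47, exact p = 0.0515) or without gastrocnemius 02, 05, 08, 09 or 10 (-1.46 to -1.37, exact p from 0.0527 to 0.0545). For H3K27ac, members took 28.0 to 32.2% of reads in cortex and 34.0 to 41.0% in gastrocnemius, without overlap. That difference was -8.35 percentage points (two-sided exact permutation p = 1.08e-05, the smallest the design allows, adjusted 4.33e-05), and -8.73 among libraries without a run number (exact p = 5.83e-04) and -8.26 among those with one (exact p = 0.0667, the smallest for 2 against 4).

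The tissues were then compared promoter by promoter, with the reads of all peaks that overlap the 1 kb on either side of the TSS and edgeR's quasi-likelihood test over every autosomal gene that had the mark in all 19 libraries. The rule removed genes with H3K27me3 in either tissue and genes that lacked an active mark in some library. How far this limits the differences of members was not tested, and the counts are read as a description against the tested genes. For H3K4me3, 6666 of 8960 members passed an FDR of 0.1 (74.4%, background 78.4% of 13419 tested), 2817 with more reads in cortex and 3849 with more in gastrocnemius. Most differences were small, with a median absolute log2 change of 0.17. At least 2-fold differences at that FDR were found for 71 members higher in cortex (0.792%, background 9.05%) and 336 higher in gastrocnemius (3.75%, background 7.68%). Among the 4310 tested genes with H3K27me3 in at least 1 library, the counts were 1136 (26.4%) and 669 (15.5%). Among the 149 without H3K27me3 that lacked an H3K27ac peak in some library, they were 8 (5.37%) and 25 (16.8%).

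For H3K27ac, 6261 members passed the FDR (69.9%, background 72.4% of 12951 tested), 2579 with more in cortex and 3682 with more in gastrocnemius. At least 2-fold higher were 399 in cortex (4.45%, background 11.1%) and 1278 in gastrocnemius (14.3%, background 15.9%). Without cortex 09 these counts were 410 and 1277, and without gastrocnemius 06 they were 387 and 1226. Normalized reads did not overlap between the tissues at 2692 members for H3K4me3 (30.0%, background 40.0%) and at 2194 for H3K27ac (24.5%, background 29.9%). The spread over all 19 libraries, as the SD of log2 reads, had a median of 0.13 in members and 0.47 in other tested genes for H3K4me3, and 0.38 and 0.70 for H3K27ac.

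Fewer members passed when only the 2 kb around the TSS was counted, where a peak's reads are taken as spread evenly, so that a wide peak lowers the value by construction. In that window 3832 members passed the FDR for H3K4me3 (42.8%, background 52.7%) and 162 with at least 2-fold (1.81%, background 10.1%), 22 higher in cortex and 140 in gastrocnemius. For H3K27ac 3711 passed (41.4%, background 49.0%) and 46 with at least 2-fold (0.513%, background 3.86%), 15 higher in cortex and 31 in gastrocnemius. Of the 71 members at least 2-fold higher in cortex for H3K4me3, 46 (64.8%) were also so for H3K27ac, which is 11.5% of the 399. In gastrocnemius 159 were shared, 47.3% of 336 and 12.4% of 1278. Members at least 2-fold higher in opposite tissues for the marks numbered 2 (H3K4me3 in cortex) and 3 (H3K4me3 in gastrocnemius).

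**Figure D4:**
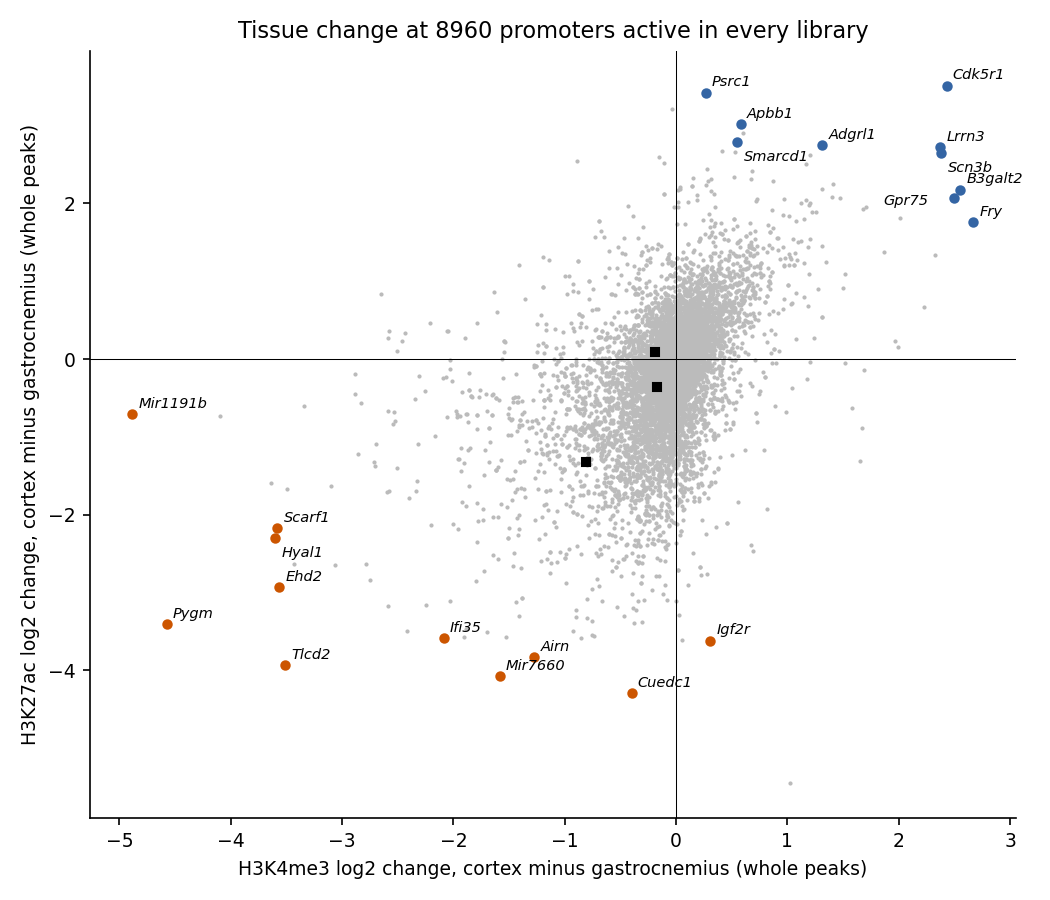
Change between tissues at each of the 8960 members. The x axis is the log2 change of H3K4me3 and the y axis that of H3K27ac, cortex minus gastrocnemius, in reads of whole peaks, with blue points for named members higher in cortex, orange points for those higher in gastrocnemius and black squares for Actb, Gapdh and Tbp. The cloud is centred near 0 (medians -0.04 and -0.11), Cdk5r1 lies at 2.43 and 3.51, and Pygm at -4.58 and -3.40.

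The members with the largest H3K4me3 excess in cortex included genes of neurons. Cdk5r1 (chr11:80477023, plus strand), whose promoter is the CpG-rich stretch above, had 194 to 233 normalized reads (RPM after TMM scaling) in cortex (median 219) and 34.9 to 49.7 in gastrocnemius (median 39.8). No gastrocnemius library came near a cortex library. The log2 change was 2.43 ± 0.05 (SE, adjusted p = 9.07e-19), and 0.61 ± 0.08 in the 2 kb window, as the peak was 10 kb wide in cortex and 3.70 kb in gastrocnemius. Its H3K27ac had 166 to 234 in cortex (median 206.8) and 14.2 to 33.6 in gastrocnemius (median 16.0), with gastrocnemius 06 the highest of that tissue. That was a log2 change of 3.51 ± 0.16 (adjusted p = 2.66e-13) and 1.42 ± 0.09 in the window, the largest H3K27ac excess in cortex among members named by the rule.

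Fry, which encodes a large microtubule-associated protein, had 97.2 to 112 H3K4me3 reads in cortex (median 105.5) and 13.2 to 23.0 in gastrocnemius (median 15.4), a log2 change of 2.67 ± 0.10 (adjusted p = 2.52e-15). B3galt2, a galactosyltransferase gene, had 63.6 to 84.9 (median 77.5) and 7.75 to 18.2 (median 13.5), a change of 2.55 ± 0.13. Gpr75, an orphan receptor gene, had 41.8 to 48.1 (median 43.8) and 6.45 to 10.4 (median 7.49), a change of 2.498 ± 0.083. None of the 3 overlapped between tissues, which the naming rule required. All stayed higher in cortex in the window, by 1.52, 1.27 and 1.80 on the log2 scale. Their H3K27ac was higher in cortex too, by 1.76, 2.17 and 2.06.

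Scn3b, a beta subunit of voltage-gated sodium channels, had 67.9 to 102 H3K4me3 reads in cortex (median 84.6) and 11.9 to 20.4 in gastrocnemius (median 16.1), a log2 change of 2.38 ± 0.11. Lrrn3, which encodes a leucine-rich repeat protein of neurons, had 149 to 169 (median 158) and 23.1 to 38.5 (median 29.8), a change of 2.37 ± 0.08, and 1.44 ± 0.11 in the window. Lrrn3 was also among the 6 largest H3K27ac excesses in cortex, at 2.73 ± 0.09 (adjusted p = 4.30e-15). The tissues did not overlap at either gene for either mark, which the naming rule required for H3K4me3 at both and for H3K27ac at Lrrn3.

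In the other direction Pygm led the protein-coding members. Pygm (chr19:6384408, plus strand), the glycogen phosphorylase of muscle, had 5.67 to 10.8 normalized H3K4me3 reads in cortex (median 7.70) and 144 to 304 in gastrocnemius (median 167). The lowest gastrocnemius library was above the highest cortex library by more than 10 times. The log2 change was -4.58 ± 0.16 (adjusted p = 7.27e-16) and held in the window at -3.05 ± 0.13, and leaving out any 1 library moved it from -4.64 to -4.47. Its H3K4me3 density of 2.13 in cortex lies below the 5th percentile of members (10.1), so Pygm met the rule in cortex on a weak peak. H3K27ac at Pygm changed by -3.40 ± 0.14, and by -1.08 ± 0.07 in the window.

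Mir1191b, a microRNA gene, had the largest H3K4me3 change under the naming rule, from 3.06 to 27.6 H3K4me3 reads in cortex (median 8.49) to 200 to 358 in gastrocnemius (median 320), a log2 change of -4.88 ± 0.34. In every gastrocnemius library its peak also covered the TSS of Nfic, a nuclear factor I gene 10876 bp away, and in no cortex library did it do so. Scarf1, a scavenger receptor of endothelial cells, had 4.77 to 7.87 in cortex (median 6.77) and 22.8 to 93.7 in gastrocnemius (median 88.2), with library 05 at 22.8 and the other 9 at 77.7 or more. One H3K4me3 peak covered Scarf1 and Rilp, 3447 bp away, in 9 of 10 gastrocnemius and 0 of 9 cortex libraries. The changes at Scarf1 were -3.58 ± 0.20 and, in the window, -2.26 ± 0.12.

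Hyal1, a lysosomal hyaluronidase gene, had 8.55 to 12.7 H3K4me3 reads in cortex (median 10.7) and 26.2 to 311 in gastrocnemius (median 93.0), a log2 change of -3.60 ± 0.36, and its peak was joined to that of Naa80 in 9 of 10 gastrocnemius libraries. Ehd2, an ATPase of caveolae, had 7.98 to 18.9 (median 11.1) and 91.5 to 259 (median 131), a change of -3.56 ± 0.19. Tlcd2 had 4.51 to 8.89 (median 6.05) in cortex, while in gastrocnemius 6 libraries lay between 10.9 and 18.5 and the other 4 between 129 and 238. In just 4 gastrocnemius libraries did its peak also cover the TSS of Mir22. In the window the changes were -1.48 for Hyal1, -2.29 for Ehd2 and -1.42 for Tlcd2, all with more in gastrocnemius.

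**Figure D5:**
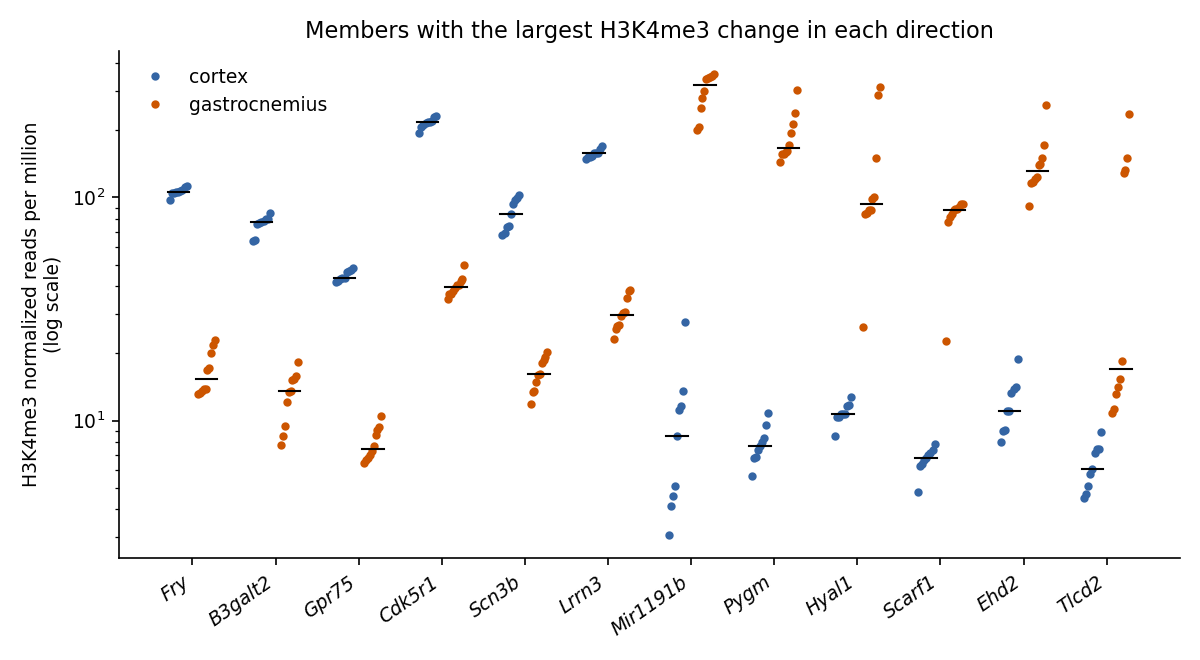
H3K4me3 at the 6 members with the largest excess in each tissue. Points are libraries (blue cortex, n = 9, orange gastrocnemius, n = 10), the y axis gives normalized reads (RPM) on a log scale, and black lines are medians. The tissues do not overlap at any of the 12, which the naming rule required. Single libraries stand apart from their tissue at Fry (cortex 02), Mir1191b (cortex 09), Scarf1 (gastrocnemius 05) and Ehd2 (gastrocnemius 03).

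For H3K27ac in cortex, Cdk5r1 was followed by Psrc1, a microtubule-associated protein of the spindle whose peaks also cover Gm12522, with 39.3 to 202 normalized reads in cortex (median 179) and 9.10 to 22.3 in gastrocnemius (median 10.6). Its log2 change was 3.42 ± 0.34 (adjusted p = 2.76e-08) but 0.48 ± 0.11 in the window, with peaks of 39.6 and 4.2 kb. Apbb1, whose product Fe65 binds the amyloid precursor protein, had 72.3 to 208 (median 83.6) and 13.7 to 16.5 (median 15.6), a change of 3.02 ± 0.21 and 0.69 ± 0.10 in the window. Its H3K4me3 was higher in cortex by 0.58 over whole peaks but lower in the window, at -0.54 ± 0.14 (adjusted p = 0.00180).

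Smarcd1, a subunit of the SWI/SNF remodelling complex, had 90.7 to 326 H3K27ac reads in cortex (median 277) and 29.4 to 39.5 in gastrocnemius (median 35.4), a log2 change of 2.79 ± 0.20 and 0.38 in the window. Adgrl1, which encodes the adhesion receptor latrophilin 1, had 114 to 257 (median 211) and 14.4 to 44.0 (median 32.4), a change of 2.75 ± 0.19 and 0.54 in the window. At none of these genes did the tissues overlap for H3K27ac, which the naming rule required.

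For H3K27ac in gastrocnemius, Cuedc1 had 31.9 to 37.6 normalized reads in cortex (median 36.8) and 531 to 932 in gastrocnemius (median 712). The log2 change was -4.29 ± 0.13 (adjusted p = 8.54e-16) and -0.74 ± 0.08 in the window, while the median width was 6.60 kb in cortex and 106.5 kb in gastrocnemius. Mir7660, which shares its peaks with Cand2, had 7.26 to 10.5 (median 8.10) and 61.6 to 206 (median 145), a change of -4.07 ± 0.23 and -1.08 in the window. Ifi35, an interferon-induced gene, had 6.78 to 12.1 (median 8.62) and 80.7 to 137 (median 97.5), a change of -3.58 ± 0.14 and -0.43 in the window. At Tlcd2 the H3K27ac change was -3.93 ± 0.42, with gastrocnemius 02 and 09 at 12.5 and 16.2 and the other 8 at 118 or more.

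Igf2r and Airn are the imprinted pair in this group. Igf2r encodes the receptor that clears insulin-like growth factor 2, and Airn is the noncoding RNA transcribed against it, from a start site 28395 bp away. H3K27ac at Igf2r was 16.4 to 24.3 reads in cortex (median 19.2) and 144 to 282 in gastrocnemius (median 250), a log2 change of -3.62 ± 0.15, and at Airn it was 10.9 to 22.6 (median 16.3) and 45.5 to 282 (median 250), a change of -3.83 ± 0.27. One H3K27ac peak covered both start sites in 9 of 10 gastrocnemius libraries and in 0 of 9 cortex libraries. In the window the change at Igf2r was -0.05 ± 0.12 and that at Airn -0.81 ± 0.09. H3K4me3 went apart at the pair, with 0.31 ± 0.06 at Igf2r (1.15 ± 0.10 in the window) and -1.27 ± 0.07 at Airn.

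Of the 13 members among the reference genes, 2 had more H3K4me3 in cortex and 8 more in gastrocnemius at the FDR, and 0 and 8 did for H3K27ac, where 74.4% and 69.9% of all members passed in either direction. Actb, which encodes beta-actin, had 112 to 128 normalized H3K4me3 reads in cortex (median 122) and 150 to 288 in gastrocnemius (median 215), without overlap, a log2 change of -0.81 ± 0.12 (adjusted p = 5.57e-06). In the window that change was 0.00 at 2 decimals, with an SE of 0.13. H3K27ac at Actb changed by -1.33 ± 0.10, and its peak was 15.0 kb wide in cortex and 43.5 kb in gastrocnemius.

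Gapdh, the glycolytic enzyme, had 174 to 194 H3K4me3 reads in cortex (median 183) and 192 to 235 in gastrocnemius (median 203), which overlap slightly, a log2 change of -0.19 ± 0.04. Tbp, the TATA-binding protein, had 147 to 160 (median 153) and 165 to 197 (median 171), a change of -0.17 ± 0.03, in a peak that also covered the TSS of Psmb1 in every library. Sdha, a subunit of succinate dehydrogenase, had 94.4 to 104 (median 97.3) and 89.3 to 104 (median 96.8), a change of 0.02 ± 0.03 (adjusted p = 0.536). Gusb also missed the FDR, at -0.07 ± 0.06, and Rplp0, at -0.20 ± 0.11. Tfrc, the transferrin receptor, was higher in cortex at 0.40 ± 0.03 but at -0.33 ± 0.10 in the window, and Ppia was higher in cortex at 0.22 ± 0.04.

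For H3K27ac, Rplp0 had 17.1 to 73.6 (median 23.5) and 23.2 to 487 (median 77.5), a change of -2.38 ± 0.61 (adjusted p = 0.00189). Eef2 changed by -1.88 ± 0.40 over whole peaks and by 0.00 at 2 decimals in the window (SE 0.07).

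The counts by gene list are a description and the lists were not tested. Of all 8960 members, 2817 had more H3K4me3 in cortex and 3849 more in gastrocnemius, and 2579 and 3682 did for H3K27ac. Over all members the median log2 change was -0.04 for H3K4me3 and -0.11 for H3K27ac. Of the 69 cytosolic ribosomal protein members, 5 had more H3K4me3 in cortex, 40 more in gastrocnemius and 24 did not pass, with a median of -0.11. The extremes were Rps15 (1.07 ± 0.19) and Rpl18 (-1.54 ± 0.05), and both were close to 0 in the window or did not pass it (0.15 ± 0.16 and 0.00 at 2 decimals, SE 0.08). For H3K27ac 14 had more in cortex and 26 more in gastrocnemius, with Rps3 at 1.24 ± 0.16 over whole peaks and -0.10 ± 0.11 in the window.

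Of the 66 mitochondrial ribosomal protein members, 8 had more H3K4me3 in cortex and 36 more in gastrocnemius, and of 29 proteasome members 2 and 15. The 8 chaperonin members split into 2, 2 and 4 that did not pass, with changes from -0.18 to 0.09. RNA polymerase II subunits gave 4 higher in cortex and 6 in gastrocnemius, from Polr2l at -1.03 ± 0.22 to Polr2h at 0.43 ± 0.04. Polr2l had 522 reads in gastrocnemius 03 against a median of 148 in that tissue, and its log2 change without that library was -0.71. At Polr2a H3K27ac changed by -1.30 ± 0.19 over whole peaks and by 0.04 ± 0.09 in the window.

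Of the 16 V-ATPase members, 10 were higher in cortex for H3K4me3 and 1 in gastrocnemius, with a median of 0.17. Its extreme was Atp6v0e2, with 85.5 to 96.4 reads in cortex (median 89.0) and 39.8 to 59.6 in gastrocnemius (median 50.6), a log2 change of 0.88 ± 0.06 and 0.68 ± 0.12 in the window. For H3K27ac, 6 V-ATPase members were higher in cortex and 3 in gastrocnemius. Of the autophagy members, 9 were higher in cortex and 10 in gastrocnemius for H3K4me3. Gabarap (an Atg8 homologue) had 64.3 to 71.3 reads in cortex (median 66.1) and 76.5 to 559 in gastrocnemius (median 291). In 8 of 10 gastrocnemius libraries its peak also covered the TSS of Phf23, and in the window the change was -0.17 ± 0.10, which did not pass.

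Of the histone members, 0 were higher in cortex, 22 were higher in gastrocnemius and 3 did not pass the FDR for H3K4me3 (median -0.37), and the counts were 11, 5 and 9 for H3K27ac (median -0.04). H4c6 had 13.3 to 16.9 H3K4me3 reads in cortex (median 15.4) and 17.8 to 85.3 in gastrocnemius (median 68.6), a log2 change of -1.83 ± 0.30 and -0.71 ± 0.13 in the window. Histone genes are clustered and near-identical in sequence. Poorly mapped reads were discarded, so reads that match several copies alike may be missing there, which was not tested. The 6 proliferation members gave 0 and 3 for H3K4me3 and 2 and 2 for H3K27ac.

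Of the 242 Zfp members, 82 had more H3K4me3 in cortex and 102 more in gastrocnemius, and 113 and 59 for H3K27ac. The extremes for H3K4me3 were Zfp239 (1.17 ± 0.06) and Zfp36 (-1.93 ± 0.09), the latter the messenger RNA decay factor tristetraprolin. Zfp36 had 73.7 to 125 reads in cortex (median 84) and 309 to 433 in gastrocnemius (median 329), and -0.89 ± 0.11 in the window. Its H3K4me3 peak also covered the TSS of Plekhg2, 6566 bp away, in 10 of 10 gastrocnemius and 1 of 9 cortex libraries. For H3K27ac the extremes were Zfp316 (2.11 ± 0.11) and Zfp422 (-2.78 ± 0.12), both at 0.08 in the window. The H3K27ac peak of Zfp422 also covered the TSS of Mir7043 in 10 of 10 gastrocnemius and 0 of 9 cortex libraries. In the coats list Sar1b, a GTPase of COPII vesicles, was lowest for both marks, at -0.76 ± 0.08 for H3K4me3 and -3.37 ± 0.22 for H3K27ac, while in the window H3K4me3 was 0.74 ± 0.11.

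The 3 marker genes that met the rule had more H3K4me3 in gastrocnemius over whole peaks. Eng had 26.7 to 48.5 H3K4me3 reads in cortex (median 36.3) and 95.9 to 171 in gastrocnemius (median 126), a log2 change of -1.90 ± 0.12, and -1.40 ± 0.11 in the window. Actn3 changed by -0.67 ± 0.08 and Mylpf by -0.40 ± 0.06 over whole peaks, which they share with their head-to-head neighbours. In the window these were 0.08 ± 0.12 and 0.44 ± 0.09.

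Several members were nearly constant across all 19 libraries. Ncor1, a corepressor gene that shares its peaks with Pigl, had 158 to 173 H3K4me3 reads in cortex (median 166) and 162 to 173 in gastrocnemius (median 167), with an SD of 0.03 on the log2 scale. Eif3b, a translation initiation factor gene, had 130 to 140 (median 135) and 131 to 141 (median 135). Ppp1r15b, a phosphatase subunit that acts on eIF2, had 215 to 229 (median 218) and 209 to 230 (median 215). None of the 3 passed the FDR, with changes of -0.01, -0.01 and 0.02. They were chosen for the smallest SD over both tissues, which leaves little room for a change between the tissues. For H3K27ac the smallest SDs were at Zcwpw2 (shared with Azi2, 0.08), Setd1b (shared with Rhof, 0.09) and Ctdp1 (0.09).

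At the other end stood members in which a few libraries decided the value. Arhgef2 had 6.32 to 14.1 H3K4me3 reads in 8 cortex libraries and 280 in cortex 08, against 186 to 247 in gastrocnemius (median 224). Its log2 change of -2.43 ± 0.66 became -4.48 without cortex 08, and the window gave -1.94 ± 0.19. Eif4enif1 had 63.6 to 74.3 reads in cortex (median 68.9), while in gastrocnemius 5 libraries lay between 72.2 and 83.2 and 5 between 1772 and 2981. Tekt1 had 4.52 to 6.04 H3K27ac reads in cortex (median 5.52) and 3.98 to 9.77 in 7 gastrocnemius libraries, but 718 to 846 in gastrocnemius 03, 04 and 06. Its H3K27ac change was -5.45 ± 1.22 (adjusted p = 6.18e-04), and -1.91 with mice paired (adjusted p = 0.164). In the window the Tekt1 change was -0.78 ± 0.25.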

How the data were processed

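ChIP-seq of H3K4me3, H3K27ac and H3K27me3 was deposited as one peak file per library. The authors used bwa for alignment (genome mm10) and SAMtools to discard poorly mapped or duplicate reads and any outside the autosomes and X. Peaks were called by epic2 on each library alone (fragment and window 200 bp, FDR 0.05, gaps of 2 windows for H3K4me3 and H3K27ac and 3 for H3K27me3). The deposited count of reads in each peak, not normalized, was used for every level. The deposited score of each peak was used only to rank peaks in one alternative.

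Peaks were joined to the most upstream RefSeq TSS of each autosomal gene (within 1 kb). Reads of all peaks there were summed per gene and library and tested with edgeR 4.0.16 (TMM, library size the reads in autosomal peaks, quasi-likelihood F-test, FDR 0.1, Benjamini-Hochberg over all genes with the mark in all 19 libraries) in R 4.3.3, with log2 changes as cortex minus gastrocnemius. Normalized reads are reads scaled by TMM to RPM. For the 2 kb window, a peak's reads were shared by overlap, as if spread evenly over it, so window values depend on peak width. Widths and read shares were compared by exact permutation over libraries (92378 relabellings, SciPy 1.17.1). Other steps ran in Python 3.11.15 with pandas 2.3.3. In simulated counts with 100 changed genes per fold, 97 (H3K4me3, 13419 genes) and 85 (H3K27ac, 12951 genes) of the 2-fold changes and 92 and 59 of the 1.5-fold changes were recovered, with 13 and 9 false calls.

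Groups came from the titles. Mice were identified from the deposited names, and 9 gave both tissues, so mouse was used as a block in an alternative. Correlations of same-mouse deviations from the group means ran from -0.068 to 0.087 for H3K4me3 and from -0.028 to 0.085 for H3K27ac. The alternatives were DESeq2 1.42.0, its size factors, no TMM, the window, a read minimum, 1 row per peak set, other distances and start sites for the rule, run number, and each library left out. Where nothing else is said, p-values measure the spread between mice of one tissue.

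Named genes were, per mark, the 6 largest changes in each direction among members with FDR under 0.1, at least 2-fold change and no overlap between tissues (Gm, LOC and Rik symbols left out, genes sharing peaks named together), 14 reference genes, the 3 highest and lowest window densities, the 3 widest, and the 3 with the smallest and largest SD. Extremes of gene lists are given for some lists only. Eng, Actn3 and Mylpf were named as the marker genes among members, and genes sharing a peak with a named gene are named for that reason. The members and lists were chosen with earlier results of these data known. Some genes and a sequence that this rule names are not reported here.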

Additional observations from a re-analysis of the deposited data

Results flagged for a closer look

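A sample was picked out where its distance from the nearest other library of its group was large for the spread of the group (Dixon's test at 95%). Chance alone picks about 1 in 20 groups, and 44 of 308 groups (14.3%) were picked. They are given as values, in normalized reads (RPM) unless a depth is named, and their causes were not tested.

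Depth stood apart in the H3K27ac libraries of cortex 09 (3.90 M reads in autosomal peaks) and gastrocnemius 06 (27 M). Gastrocnemius 06 was picked most often at single genes. For H3K4me3 it was high at Airn (85.9), Ifi35 (112.9), Tbp (196.6), Neat1 (1048), Capzb (168.4), Rps3 (89.9) and Gabarap (558.5). It was also high for H3K4me3 at Sar1b (163.5), Zfp36 (432.6), Actn3 (170.8) and Mylpf (215.7), and for H3K27ac at Cdk5r1 (33.6), Atp6v0e2 (135.0) and Sar1b (342.0).

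Gastrocnemius 03 was high for H3K4me3 at Ehd2 (258.9), Adgrl1 (74.7), Rplp0 (117.8) and Polr2l (522.4), and for H3K27ac at Phf10 (47.7). For H3K4me3, gastrocnemius 10 was high at Ppp1r15b (230.0), gastrocnemius 01 was high at Tfrc (81.8) and gastrocnemius 09 was low at Rpl13a (106.4). Gastrocnemius 05 was low for H3K4me3 at Scarf1 (22.8) and high for H3K27ac at B3galt2 (15.2). For H3K27ac, gastrocnemius 02 was low at Airn (45.5), gastrocnemius 07 was low at Smarcd1 (29.4) and gastrocnemius 04 was high at Sdha (75.6).

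Among cortex libraries, 08 was high for H3K4me3 at Arhgef2 (280.4) and low at Lmnb1 (145.5), and was high for H3K27ac at Hyal1 (347.7). Cortex 09 was high for H3K4me3 at Mir1191b (27.6) and Setd1b (371.0) and for H3K27ac at Scarf1 (43.4) and Zfp239 (22.9). Cortex 02 was low for H3K4me3 at Fry (97.2) and for H3K27ac at Cuedc1 (31.9). The remaining high values were Pex13 (139.3, H3K4me3, cortex 04), Tfrc (37.1, H3K27ac, cortex 04), Zfp316 (90.3, H3K4me3, cortex 03), Sar1b (28.3, H3K27ac, cortex 03), Zfp36 (159.1, H3K27ac, cortex 05) and Sdha (33.5, H3K27ac, cortex 06).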

How the results depend on the processing

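The number of members ran from 8960 to 9054 when 1 library was left out, and was 9512 when a gene could fail in 1 library and 8058 with 2.5 kb on either side of the TSS. Leaving out 1 library gave 6500 to 6674 members past the FDR for H3K4me3, 68 to 73 at least 2-fold higher in cortex and 314 to 352 in gastrocnemius. For H3K27ac it gave 6125 to 6276, 385 to 410 and 1226 to 1350. The differences in width ran from -1.31 to -1.11 kb and from -4.29 to -3.62 kb, and those in read share from -1.87 to -1.37 and from -8.79 to -8.001 percentage points. The window counts (3832, 22 and 140 for H3K4me3 and 3711, 15 and 31 for H3K27ac) were smaller, and the window holds only part of each peak, with its reads spread evenly. With only the 2 cortex and 4 gastrocnemius libraries that have a run number, 3829 members passed for H3K4me3 and 2352 for H3K27ac, with 835 at least 2-fold higher in gastrocnemius for H3K27ac, from fewer samples.

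With mouse as a replicate block, 6439 members passed for H3K4me3 and 6042 for H3K27ac, and the H3K4me3 read share differed by -1.39 (exact p = 0.105). Without a run number it was -0.688 (exact p = 0.340), with one -3.52 (exact p = 0.0667, the smallest possible), and with equally many top-scoring peaks per library -2.93 (exact p = 2.17e-05). Under the mouse block, H3K4me3 calls were lost at Pex13, Phf10, St6galnac4 and Setd1b and H3K27ac calls at Phf10, Tekt1, Rpl18 and Mylpf, and no other called gene named here lost its call. Pairing by title number gave 6528 and 6001. Without TMM, 294 members were at least 2-fold higher in cortex and 1602 in gastrocnemius for H3K27ac.

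Of the values called in at least 1 of the compared fits, signs turned in the 2 kb window for H3K4me3 at Apbb1 (-0.54), Smarcd1 (-0.10), Rpl13a (0.14), Tfrc (-0.33), Ube3a (-0.30), Capzb (0.39), Dpm2 (0.41), Rpl18 (0.0028), Polr2a (0.14), Polr2h (-0.20), Sar1b (0.74), Actn3 (0.083) and Mylpf (0.44). They turned there for H3K27ac at Actb (0.0012), Tbp (0.048), Sdha (0.27), Eef2 (0.00031), Lmnb1 (0.48), Smn1 (-0.50), Rpl18 (-0.25), Rps3 (-0.10), Polr2a (0.036) and Zfp422 (0.077). H3K4me3 turned at Igf2r (-0.0024) and Setd1b (0.030) with only run-numbered libraries, and H3K27ac at Zcwpw2 (-0.12) without TMM. Among the other values outside the left-out libraries, 1466 stayed on their side of the threshold with no turn of sign in a called value, though values near 0 that passed in neither fit could turn, 80 kept the direction but lost the call and 23 gained one. The causes were not tested. Peak calls depend on depth, which limits the absence of H3K27me3 in the shallower libraries.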
